A study of Mus musculus with 22 samples.

Results

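The 10 chemokine genes Ccl2, Ccl7, Ccl8, Ccl11, Ccl5, Ccl6, Ccl9, Cxcl1, Cxcl12 and Cx3cl1 were followed in maps of open chromatin from mouse adipocytes. They are 10 of 55413 annotated genes, and they were chosen by name. The locus of each gene was its span in the GENCODE vM21 annotation of the genome build GRCm38 with 20 kb added on each side. Peaks of open chromatin from all 22 libraries were merged wherever they overlapped, which gave 104657 union regions in the genome, and 26 of these overlapped a chemokine locus. The loci of Ccl2, Ccl7 and Ccl11 overlap each other, as do those of Ccl6 and Ccl9, so values within either set share regions and are not independent. Other coding genes also fall in some loci, among them Cxcl2 in that of Cxcl1 and Ccl12 in that of Ccl8. Any peaks at those genes count towards the locus.

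The study asked what adipocytes keep of an obese state once weight has been lost, and ATAC-seq, in which a transposase cuts accessible DNA, was run on nuclei from epididymal fat (epiAT). All mice, controls included, were AdipoERCre x NuTRAP mice (C576BL6 background as labelled, C57BL/N in the study's methods), in which tamoxifen given before the diets switches on a Cre enzyme in adipocytes and the reporter then tags their nuclei for pull-down, so the libraries cover cells in which that Cre was active at that time. Each library came from 1 animal. In the short arm C (n = 3) ate low-fat chow until 18 weeks of age and H (n = 3) ate high-fat diet (HFD) for 12 weeks to the same age. The weight-loss group HC (n = 3) ate HFD for 12 weeks and standard chow for 8 weeks and was collected with its control CC_s (n = 3) at 26 weeks of age. In the long arm HH (n = 3) had HFD for 25 weeks and was 31 weeks old like its control CC_l (n = 2). HHC (n = 3) had HFD for 25 weeks and then standard chow for 8 weeks, and like its control CCC (n = 2) it was 39 weeks old. The controls CC_s and CCC changed to standard chow for the last 8 weeks as well.

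Chemokines are small secreted proteins that guide white blood cells along concentration gradients by binding receptors on their surface. CC chemokines such as Ccl2 and Ccl5 draw monocytes, eosinophils and T cells, CXC chemokines such as Cxcl1 draw neutrophils, and Cx3cl1 is made as a protein tethered to the cell membrane. In obese fat, Ccl2 from adipocytes and other cells is known for its part in bringing monocytes into the tissue, where they become macrophages. Several of these genes lie side by side because the family grew by gene duplication.

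The 22 peak lists held between 40528 and 60523 peaks that covered 128.1 to 299.5 Mb, and their read depth is unknown. HC 3 and HHC 3 stood apart. Their median highest coverage in a peak was 17 and 18 against 30 to 107 elsewhere, and their mean correlation with the other libraries was 0.794 and 0.764 against 0.883 to 0.934 for the rest. They also lay outside the range of the other 20 libraries at several chemokine loci, so the weight-loss differences below are followed by their value without them where it moved. All 12 adipocyte markers on a list of known genes had a peak within 2 kb of a start site in all 22 libraries. Of 12 macrophage markers 3 (Cd68, Cd14 and Spi1) had one in all 22, and Fcgr1 had one in none. Of 12 lymphocyte markers 5 (Cd3e, Cd2, Cd8a, Cd4 and Rag1) had none in any library and Ikzf1 had one in all 22, and of 12 endothelial markers Egfl7 and Esam had one in all 22, Flt1 in 10, 7 others in 1 to 4, and Vwf and Erg in none. Of 8 mesothelial markers Lrrn4 had one in 16 libraries, Krt8 in 13, Wt1 in 12, Upk3b in 7, Msln and Krt19 in 3 each, and Upk1b and Gpm6a in none, and of 8 progenitor markers Pdgfra and Dcn had one in all 22, Thy1 in 20, Dpp4 in 16, Ly6a in 9, Cd34 in 6, Lum in 4 and Pi16 in 3.

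The signal of a locus was the coverage inside its peaks, summed over the locus, put on a common scale by rank across libraries and given as log2. A value of 13.61 is the floor of that scale and covers loci with little or no peak signal. Because each library holds many nuclei, more open nuclei and more accessible DNA per nucleus cannot be told apart.

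Open chromatin was widespread at 7 of the 10 loci and sparse at 3. As a share of locus length, which allows genes to be compared, peaks covered 41.04% ± 9.196 (SD, n = 22 libraries) of the Cxcl1 locus. Ccl11 followed at 38.56% ± 12.63, Ccl7 at 37.71% ± 11.82, Ccl9 at 33.99% ± 12.89, Ccl2 at 26.82% ± 9.002, Ccl5 at 26.05% ± 10.81 and Ccl6 at 23.89% ± 9.888. Neighbours in this order differed by less than the larger of their SDs. The step down to Cx3cl1 at 7.219% ± 4.062 was larger than the spread. Cxcl12 was close to it at 6.94% ± 3.594. Ccl8 came last at 0.832% ± 1.525, again a step larger than the spread. The median of 21938 protein-coding loci was 11.38%, and Cxcl1 stood at the 86.8th percentile of them and Ccl8 at the 17.8th.

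Peaks at start sites gave another order. Ccl2 and Cxcl1 had a peak within 2 kb of the start site in all 22 libraries, Ccl7 in 21, Cxcl12 in 20, Cx3cl1 in 16, Ccl6 in 15, and Ccl11 and Ccl9 in 14 each. Ccl5 had one in only 2 libraries (1 of the CC_s group and 1 of the CCC group) although its locus was well covered, and Ccl8 had none. Of the 27 other mouse chemokine genes 3 (Ccl25, Ccl27a and Cxcl10) had a start-site peak in all 22 libraries and 10 in none. Of 23 receptor genes 4 (Ackr3, Ccr10, Ccrl2 and Cxcr4) had one in all 22, while 10, among them Ccr1, Ccr2, Ccr3 and Cxcr3, had one in none.

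**Figure D1:**
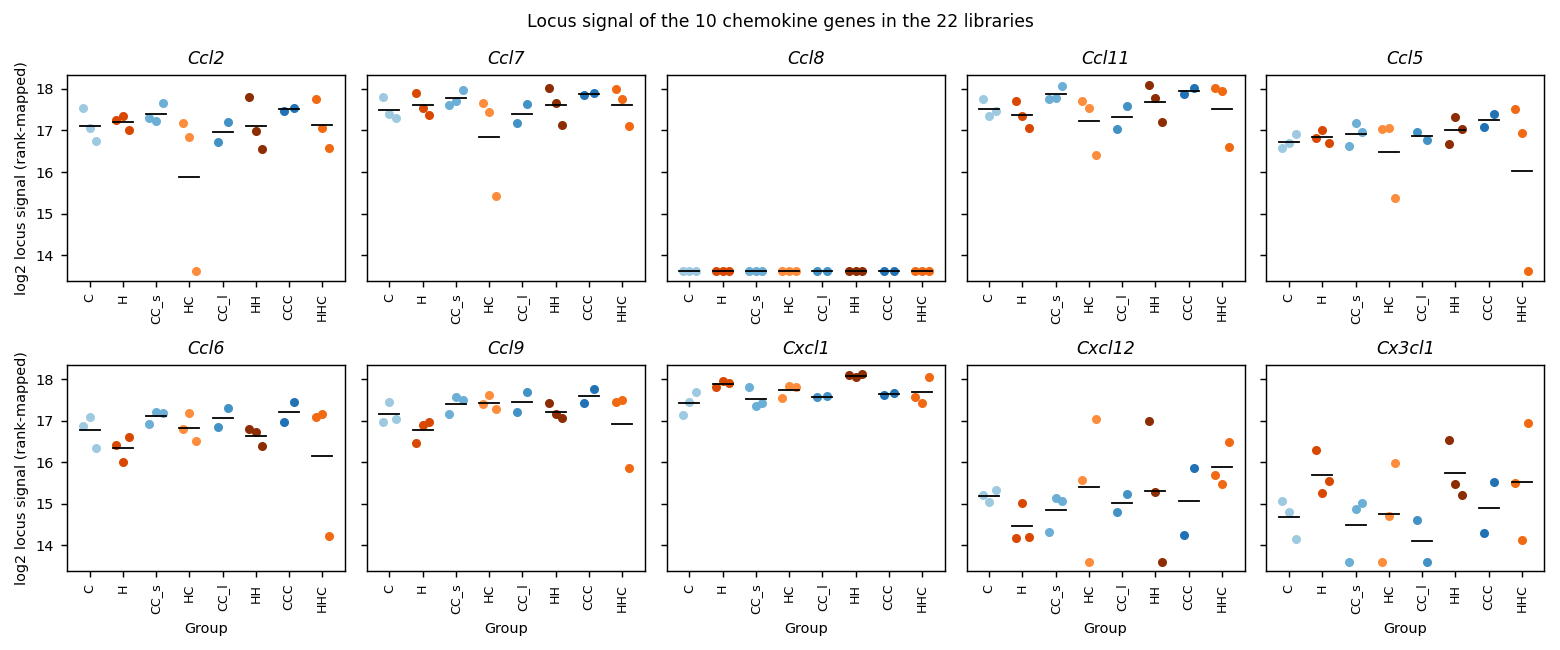
Rank-mapped log2 locus signal (vertical axes) of the 10 chemokine genes in each of the 22 libraries, by group (horizontal axes), 1 point per library. H and HH sit above their controls at Cxcl1 and Cx3cl1, Ccl8 sits at the floor of 13.61 in every library, and HC 3 and HHC 3 lie far below their groups at Ccl2 and Ccl5 respectively.

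Cxcl1, a neutrophil attractant that acts through the receptor Cxcr2, had a higher rank-mapped signal in both obese groups, while the share of its locus under peaks overlapped between the diets. Locus signal (log2) was 17.13, 17.45 and 17.68 in C and 17.81, 17.95 and 17.91 in H. It was 17.57 and 17.59 in CC_l and 18.09, 18.04 and 18.12 in HH. The obese and control libraries did not overlap at either duration. Here and below, the share of all loci or regions that separate in signal like this was not counted. A lack of overlap is therefore a description. The difference was 0.47 ± 0.17 (SE) for H against C (limma, adjusted p = 0.093 over all loci) and 0.50 ± 0.15 for HH against CC_l (adjusted p = 0.272), both under 0.05 before adjustment. Over both durations it was 0.49 ± 0.11, a 1.4-fold rise (limma, adjusted p = 0.0149). That is below the size of 1 on the log2 scale that a call also required. Peaks covered 34.07%, 54.14% and 51.51% of the locus in C and 40.58%, 38.65% and 38.78% in H, and 29.14% and 42.22% in CC_l and 30.13%, 52.35% and 45.14% in HH.

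The size of the Cxcl1 difference depended on the window and the measure. With 5 kb on each side of the gene it was 0.57 ± 0.20 for H against C but 0.07 ± 0.27 for HH against CC_l, and within the gene span alone it was 0.78 ± 0.30 and 0.14 ± 0.48. Over both durations these windows gave 0.32 ± 0.16 and 0.46 ± 0.27, neither past p under 0.05. By the highest coverage in a peak the difference over both durations was 0.29 ± 0.14, not past p under 0.05, and with the 20000 strongest peaks of each library it was 1.24 ± 0.23.

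The signal of Cxcl1 lay mostly in 1 union region, chr5:90873579-90895103, from 17.66 kb upstream of the start site to 3.862 kb beyond it, with the whole gene inside. Its log2 signal was 16.76, 16.78 and 17.14 in C and 17.49, 17.59 and 17.39 in H. It was 16.95 in both CC_l libraries and 17.59, 17.44 and 17.61 in HH. The rise over both durations was 0.60 ± 0.10 (limma, adjusted p = 0.00515), 0.60 ± 0.15 in either arm. After weight loss the 3 HC values of 17.05, 17.12 and 17.37 still lay above the CC_s values of 16.95, 16.66 and 16.69, but the difference of 0.41 did not pass (adjusted p = 0.46) and was 0.32 ± 0.16 without HC 3, and HHC and CCC overlapped.

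Where the union region was divided into stretches covered by peaks in at least 6 libraries, a division chosen after its values had been seen, the part farthest upstream differed most. This stretch, chr5:90874163-90877986, holds no exon and lies 17.1 to 13.3 kb before the Cxcl1 start site. Its log2 signal was at the floor of 14.22 for stretches in all 3 C and both CC_l libraries. H read 15.06, 15.91 and 15.41 there, and HH read 15.69, 15.08 and 15.53. The difference was 1.24 for H against C and 1.21 for HH against CC_l. These sizes depend on where the floor is, and since the stretch passed the filter on low values only through the obese libraries and was drawn with the rise of its region known, they are given as a description and lend that rise no support of their own. A peak was called there in 2 of 3 C and both CC_l libraries as well, so 4 of 5 controls of the obese groups held a peak there, of lower signal. HHC read 15.17, 14.84 and 15.28 against 14.22 and 14.96 in CCC (0.51 ± 0.36), and CC_s was at the floor in all 3 libraries while HC read 14.22, 14.22 and 15.79.

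The Cxcl1 promoter is shown because every library had a peak within 2 kb of its start site. It lies at chr5:90890995-90891294 (plus strand) and begins 250 bases before the start site in RefSeq. It was read from RefSeq GRCm38.p6, and capitals mark matches to the TATA box TATAAA, to the AP-1 motif TGANTCA and to the NF-kappaB motif, searched on both strands. The motif TTCNNNGAA of STAT factors was searched as well.
Cxcl1 promoter: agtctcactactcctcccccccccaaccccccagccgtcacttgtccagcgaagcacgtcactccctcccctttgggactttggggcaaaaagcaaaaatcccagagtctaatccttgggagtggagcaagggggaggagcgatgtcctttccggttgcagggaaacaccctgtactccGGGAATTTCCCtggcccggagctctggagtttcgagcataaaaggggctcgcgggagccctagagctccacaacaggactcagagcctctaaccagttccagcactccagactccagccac
The promoter holds 2 NF-kappaB matches that overlap each other, at bases 180 to 189 and 181 to 190. Among 32851 promoters of the same length the share with a match was 8.46% for NF-kappaB, 7.81% for AP-1, 13.6% for TATAAA and 8.3% for STAT. Of the 10 genes, 6 had a promoter entry (Ccl8, Ccl6, Ccl9, Cxcl1, Cxcl12 and Cx3cl1). A match describes the letters and not binding.

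**Figure D2:**
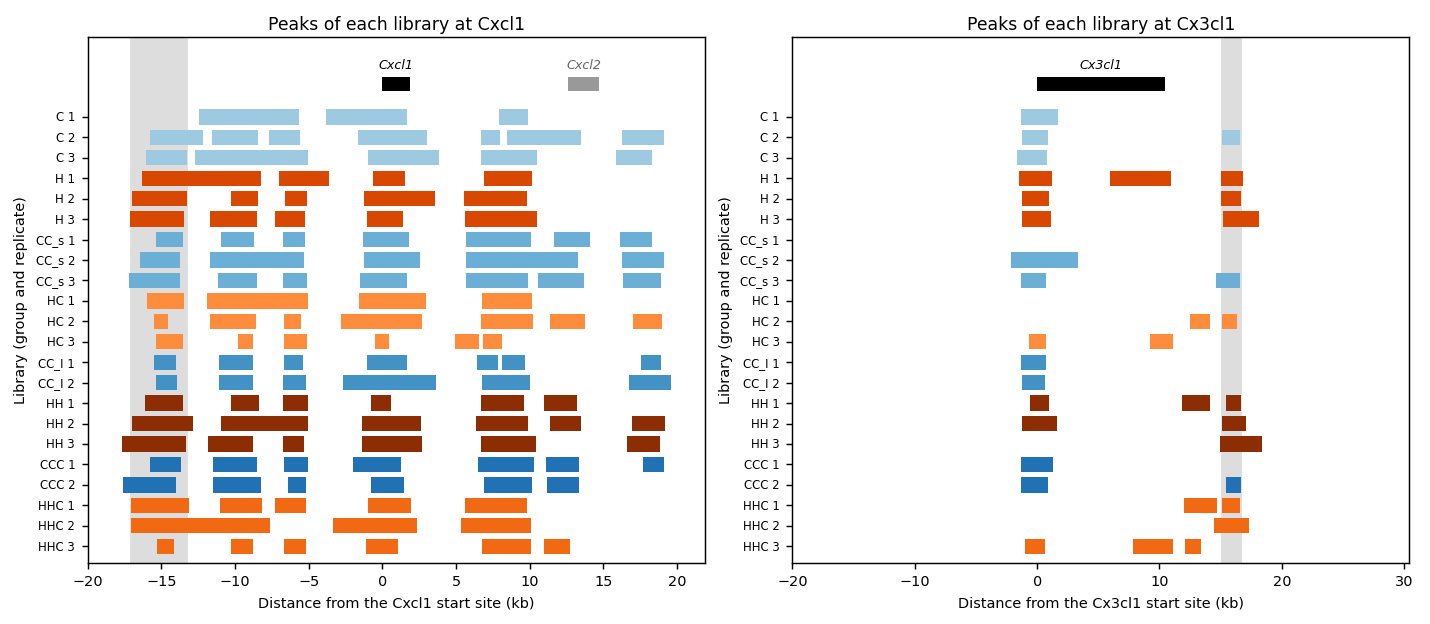
Peaks of each library (rows, by group and replicate) at Cxcl1 and Cx3cl1 against the distance from the start site in kb (horizontal axes), with 1 bar per peak. The grey bands mark the stretch 17.1 to 13.3 kb before Cxcl1, with peaks in both obese and control libraries, and the stretch 15.1 to 16.7 kb beyond the Cx3cl1 start site, with peaks in all 3 H and all 3 HH libraries, in 1 of 3 C libraries and in neither CC_l library.

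Cx3cl1, the membrane-bound chemokine that binds Cx3cr1 on monocytes and macrophages, was the only member locus that passed both limits of a call (unadjusted p under 0.01 and a difference above 1 in size). Its log2 locus signal was 15.06, 14.80 and 14.16 in C and 16.30, 15.25 and 15.56 in H. It was 14.62 and 13.61 in CC_l and 16.53, 15.47 and 15.22 in HH. All obese libraries lay above all controls of their age. The difference was 1.03 ± 0.37 for H against C (limma, adjusted p = 0.0955), 1.63 ± 0.54 for HH against CC_l (adjusted p = 0.307) and 1.33 ± 0.34 over both durations, a 2.51-fold rise (adjusted p = 0.0229). The call was lost without CC_l 2, which sat at the floor (1.08 ± 0.38), by the highest coverage (0.77 ± 0.22, below the size required) and with all 22 libraries in 1 fit (1.33 ± 0.51). Among the 20000 strongest peaks of each library none lay in the locus in C, H, CC_l or HH, so that setting gave no test. After weight loss the groups overlapped, at 0.26 ± 0.68 for HC against CC_s and 0.62 ± 0.92 for HHC against CCC (adjusted p = 0.877). Without HC 3 and without HHC 3 these were -0.35 ± 0.54 and -0.09 ± 0.66. The highest value in HC was 15.97, from HC 3, and the highest in HHC was 16.94, from HHC 3. Without these libraries the difference over both durations went from 0.44 to -0.22.

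Covered length was higher as well, at 3.052 kb ± 0.6109 (SD) in C and 6.216 kb ± 2.933 in H, and at 1.917 kb ± 0.1082 in CC_l and 4.423 kb ± 0.8529 in HH.

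At the start site of Cx3cl1 no difference passed a test. The region that spans it, chr8:94769858-94775346, differed by -0.18 for H against C and 0.12 for HH against CC_l (adjusted p = 0.671 and adjusted p = 0.897). A peak within 2 kb of the start was called in 3 of 3 C, 3 of 3 H, 2 of 2 CC_l and 2 of 3 HH libraries. With the locus cut to 5 kb on each side the difference over both durations was 0.73 ± 0.51, and within the gene span alone 0.95 ± 0.79, neither past p under 0.05.

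Downstream of the gene, the intergenic region chr8:94783885-94790395, 11.88 to 18.39 kb beyond the start site, was called in all 3 HH libraries and in neither CC_l library. It was the only one of 19 member regions present in all of one group and none of the other in that comparison, where 4.72% of all regions behaved so. Its log2 signal was at the region floor of 14.01 in all C and CC_l libraries, 14.24, 14.09 and 14.69 in H, and 15.97, 14.52 and 15.12 in HH. The difference was 1.19 for HH against CC_l and 0.76 over both durations. With every control at the floor the region was tested only because it was high in obese libraries, so these values are a description. In the weight-loss arms HC read 14.01, 14.73 and 14.01 and HHC read 15.42, 14.18 and 14.01, overlapping their controls.

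The Cx3cl1 promoter is at chr8:94771930-94772229 (plus strand). The window on the median of 12 peak maxima downstream is at chr8:94787509-94787808 (plus strand). They are shown to set the start site, near which peaks were called in both diets, beside the downstream region. Matches to the same motifs are in capitals.
Cx3cl1 promoter: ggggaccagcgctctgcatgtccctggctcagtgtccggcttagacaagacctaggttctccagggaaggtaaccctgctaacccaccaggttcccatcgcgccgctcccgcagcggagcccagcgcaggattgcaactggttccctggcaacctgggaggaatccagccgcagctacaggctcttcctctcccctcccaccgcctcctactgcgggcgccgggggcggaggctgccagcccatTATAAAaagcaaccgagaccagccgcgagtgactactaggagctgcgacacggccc
Cx3cl1 downstream window: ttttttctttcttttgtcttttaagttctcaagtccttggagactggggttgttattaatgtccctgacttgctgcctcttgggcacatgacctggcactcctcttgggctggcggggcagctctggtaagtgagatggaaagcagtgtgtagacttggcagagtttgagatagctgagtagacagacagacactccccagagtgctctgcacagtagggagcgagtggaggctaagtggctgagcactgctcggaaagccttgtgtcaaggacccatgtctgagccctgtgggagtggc
The promoter holds a TATAAA at bases 245 to 250, beyond the GENCODE start of the gene, since the RefSeq entry is set on a start site farther downstream, and the downstream window holds none of the 4 motifs. For comparison, 6377 windows of the same length were set on the middle of each stretch on chromosomes 5 and 8, not on peak maxima. The share of them with a match was 16.1% for TATAAA, 9.05% for AP-1, 9.69% for STAT and 6.32% for NF-kappaB.

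Endothelial cells are a known source of Cx3cl1. The summed log2 locus signal of 12 endothelial genes was 20.47 to 20.70 in C and 20.71 to 20.89 in H, and 20.42 to 20.65 in CC_l and 20.55 to 22.14 in HH, so that H lay above C while HH and CC_l overlapped. Over both durations 1 of 10 tested genes was called where 6.37% of all loci were. It was Cdh5 (VE-cadherin, a junction protein of vessels), at 3.23 ± 0.43 (limma, adjusted p = 0.00131). Of the 10, 9 differed upward and 1 downward, Vwf at -0.92 ± 0.25 (adjusted p = 0.028). For H against C Vwf was called lower (-1.05 ± 0.23). A peak within 2 kb of a Cdh5 start site was found in 0 of 3 H and 1 of 3 HH libraries. The part of endothelial cells in the Cx3cl1 result was not tested. The summed signal of the 12 macrophage markers was not higher in the obese groups. It was 21.10 to 21.16 in C and 20.94 to 21.07 in H, all lower, and 21.08 to 21.12 in CC_l and 20.91 to 21.14 in HH, which overlap. The summed signal of the 8 mesothelial markers was 19.99 to 20.15 in C and 19.50 to 19.66 in H, all lower, and 19.85 to 20.01 in CC_l and 19.67 to 19.99 in HH. Over both durations 2 of 7 tested mesothelial genes were called, Upk1b higher at 2.28 (limma, adjusted p = 0.0013) and Lrrn4 lower at -1.07 (adjusted p = 0.00174), and their part in the chemokine results was not tested.

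Ccl2 (MCP-1), the main attractant of Ccr2-bearing monocytes, had a peak within 2 kb of its start site in every library. It had no difference with obesity that passed a test. Its log2 locus signal was 17.53, 17.06 and 16.75 in C and 17.26, 17.35 and 17.00 in H, and 16.72 and 17.20 in CC_l and 17.80, 16.98 and 16.56 in HH. The groups overlapped at both durations. The difference over both was 0.12 ± 0.23 (limma, adjusted p = 0.756), and for the start-site region chr11:82031295-82041394 it was 0.07 ± 0.17 (adjusted p = 0.791).

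After weight loss, Ccl2 read 17.19, 16.84 and 13.61 in HC against 17.31, 17.22 and 17.67 in CC_s. HC lay below CC_s in every library, but most of the difference of -1.52 ± 0.88 (limma, adjusted p = 0.561) came from HC 3, and without it the difference was -0.39 ± 0.22. HHC read 17.75, 17.07 and 16.58 against 17.48 and 17.53 in CCC, and the groups overlapped. The start-site region gave -1.17 ± 0.52 for HC against CC_s (adjusted p = 0.423), and -0.51 ± 0.18 without HC 3.

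Ccl7, another Ccr2 ligand, and Ccl11 (eotaxin), which draws eosinophils through Ccr3, share this cluster and differed little with obesity. Ccl7 differed by 0.16 ± 0.19 over both durations (limma, adjusted p = 0.594) and Ccl11 by 0.11 ± 0.19 (adjusted p = 0.72). After weight loss Ccl7 read 17.65, 17.45 and 15.43 in HC against 17.62, 17.72 and 17.98 in CC_s. HC 3 again was the low library, and the difference of -0.93 ± 0.56 became -0.22 ± 0.18 without it. Ccl11 read 17.72, 17.55 and 16.40 in HC against 17.75, 17.77 and 18.08 in CC_s, a difference of -0.64 ± 0.36 that became -0.23 ± 0.18 without HC 3. The region over the Ccl7 start site, chr11:82041496-82050893, gave -1.02 ± 0.48 for HC against CC_s (adjusted p = 0.444) and -0.96 ± 0.45 over both durations of weight loss (adjusted p = 0.396). Without HC 3 the former was -0.47 ± 0.23, and without HC 3 and HHC 3 the latter was -0.35 ± 0.18.

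**Figure D3:**
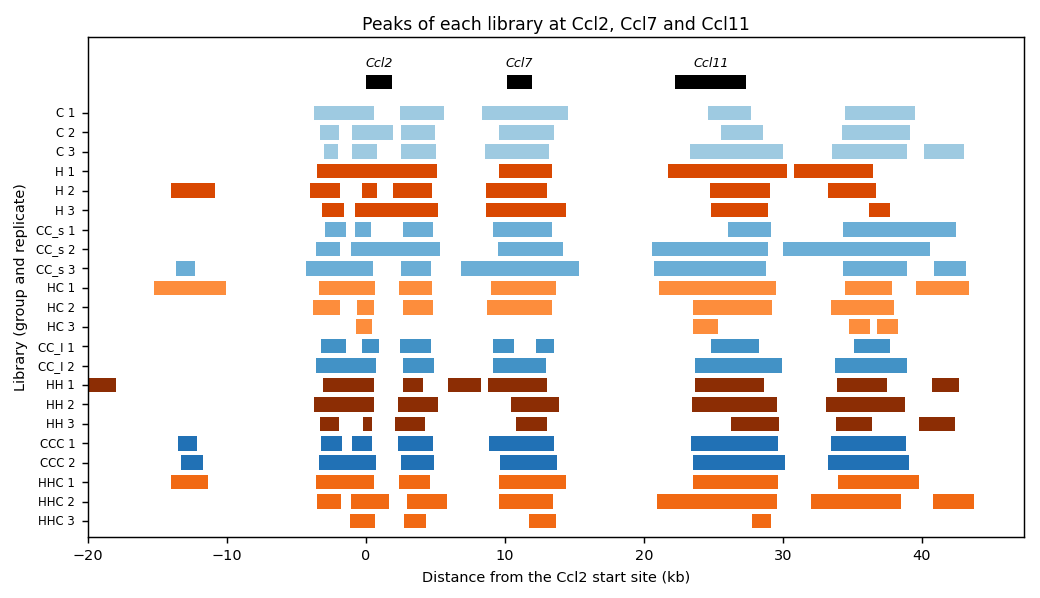
Peaks of each library (rows) over the Ccl2, Ccl7 and Ccl11 cluster against the distance from the Ccl2 start site in kb (horizontal axis), with 1 bar per peak. A peak lies within 2 kb of the Ccl2 start site in all 22 libraries, whatever the diet. HC 3 has the fewest covered bases, 2.607% of the Ccl2 locus.

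Ccl8 (MCP-2), a monocyte attractant whose gene lies farther along the same cluster, was nearly without peaks. A peak touched its locus in 6 of 22 libraries, none lay within 2 kb of the start site, and the locus was at the floor of 13.61 in all, so it was not tested. At the far edge of the locus the region chr11:82135450-82141772, 20.27 to 26.59 kb beyond the start site and mostly outside the locus, was lower in H. It read 15.43, 14.81 and 15.13 in C against 14.01, 14.33 and 14.01 in H (a difference of -1.01). Here too 2 of 3 H libraries were at the region floor of 14.01, the region entered the comparison through C, and its call is a description. The call was lost without C 1 (-0.85 ± 0.20) and without H 1 or H 3 (-0.96 each), with median-centred signal (-0.43 ± 0.19) and by the highest coverage (-0.53 ± 0.38). HH and CC_l overlapped there. So did HC (mean 14.35) and CC_s (mean 15.04), with a difference of -0.52 ± 0.30 without HC 3. HHC read 14.53, 14.43 and 14.01 against 15.55 and 15.60 in CCC (-1.25 ± 0.43, adjusted p = 0.76), and over both durations of weight loss the difference was -0.97 ± 0.25 (adjusted p = 0.146). Without HHC 3 the former was -1.10 ± 0.32, and without HC 3 and HHC 3 the latter was -0.81 ± 0.21.

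Ccl5 (RANTES), which attracts T cells and monocytes, had similar locus values in obese and control libraries, and 1 region beyond the gene was called lower in H. The locus read 16.58, 16.70 and 16.91 in C and 16.81, 17.02 and 16.69 in H, and 16.96 and 16.76 in CC_l and 16.67, 17.32 and 17.04 in HH (0.13 ± 0.16 over both, limma, adjusted p = 0.605). Downstream, the region chr11:83501993-83513873, 16.64 to 28.52 kb beyond the start site and over exons of the neighbours Heatr9 and Taf15, fell in H. It read 15.43, 15.89 and 16.05 in C and 14.62, 14.38 and 14.56 in H (-1.27 ± 0.25, limma, adjusted p = 0.0168). The call was lost by the highest coverage (-0.65 ± 0.20) and with all libraries of the short arm in 1 fit (-1.27 ± 0.43). HH was mixed at 14.01, 16.17 and 15.03 against 15.51 and 15.39 in CC_l (-0.38 ± 0.63, adjusted p = 0.803), and over both durations the difference was -0.82 ± 0.34 (adjusted p = 0.131). The difference between the arms was not past p under 0.05. Upstream, the region chr11:83531605-83551404 read 15.63, 15.87 and 16.32 in C and 16.44, 16.77 and 16.24 in H, and 16.34 and 16.06 in CC_l and 16.75, 16.76 and 16.52 in HH. The difference over both durations was 0.51 ± 0.16 (adjusted p = 0.0578), below the size a call required, and C and H overlapped.

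After weight loss, the Ccl5 locus read 17.03, 17.06 and 15.37 in HC against 16.63, 17.18 and 16.96 in CC_s, and 17.52, 16.94 and 13.61 in HHC against 17.09 and 17.39 in CCC. The low libraries were again HC 3 and HHC 3. The difference for HHC against CCC was -1.22 ± 1.17 (limma, adjusted p = 0.853), and without HHC 3 it was -0.01 ± 0.28. The downstream region gave -1.03 ± 0.41 over both durations of weight loss (adjusted p = 0.331) and -0.52 ± 0.23 without HC 3 and HHC 3.

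Ccl9 and Ccl6, relatives that bind Ccr1 and are made mostly by myeloid cells, lie side by side. The region chr11:83561618-83573788, which reaches from the last exon of Ccl9 into the sequence beyond it, 4.848 to 17.02 kb from the Ccl9 start site, was the member region with the largest difference between H and C. It read 15.38, 15.89 and 15.96 in C against 14.01, 14.33 and 14.01 in H, a difference of -1.62. As 2 of 3 H libraries were at the region floor of 14.01, the region entered this comparison through C and the size depends on where the floor is, so the call is a description. HH read 14.01, 15.82 and 15.25 against 16.06 and 16.12 in CC_l, all lower, but the difference of -1.07 did not pass (adjusted p = 0.463). Over both durations it was -1.34 ± 0.30 (limma, adjusted p = 0.0176), the only member region called there. As this value draws on the same H libraries and an HH library at the floor, it too is a description. In HC it read 15.99, 16.32 and 14.01 against 15.54, 16.18 and 15.89 in CC_s, and in HHC 15.89, 15.58 and 14.54 against 15.82 and 16.33 in CCC. The groups overlapped after weight loss. By the highest coverage in place of the summed one, the fall in H was -0.58 and no longer a call, and that over both durations was -0.46 ± 0.21 by this measure and -0.27 ± 0.08 with the 20000 strongest peaks, neither a call.

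The Ccl9 locus as a whole differed by -0.30 ± 0.16 over both durations of obesity (limma, adjusted p = 0.234) and the Ccl6 locus by -0.43 ± 0.20 (adjusted p = 0.152). Ccl6 read 16.80, 16.73 and 16.38 in HH against 16.85 and 17.30 in CC_l, all lower, and 16.42, 16.01 and 16.61 in H against 16.87, 17.09 and 16.35 in C, which overlap. The region over the Ccl6 start site, chr11:83590308-83596540, read 14.01, 14.11 and 14.01 in C and at least 14.13 in every H library, with a mean of 14.56. With 2 of 3 C libraries at the region floor it entered this comparison through H, so the difference of 0.51 is a description. HH against CC_l gave -0.21 ± 0.41 there, and both durations together 0.15 ± 0.24. After weight loss Ccl6 differed by -1.05 ± 0.96 for HHC against CCC, and by -0.09 ± 0.25 without HHC 3.

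**Figure D4:**
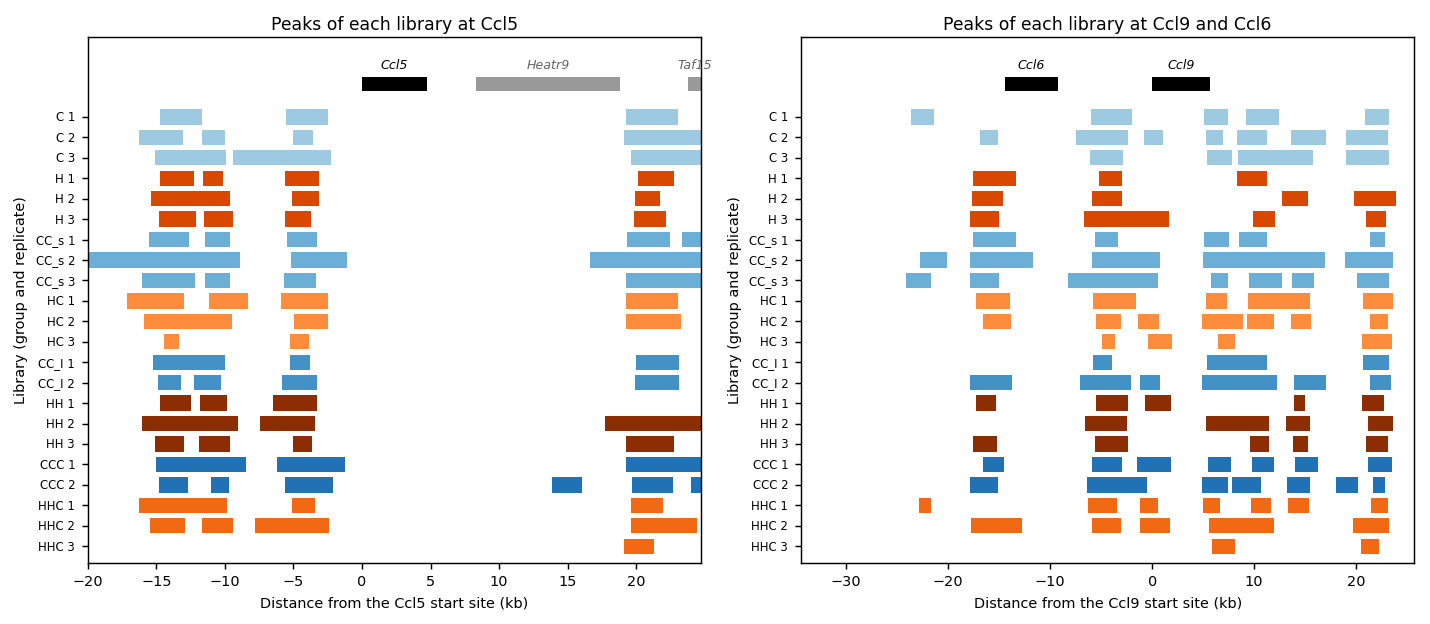
Peaks of each library (rows) at Ccl5 and at Ccl9 with Ccl6 against the distance in kb from the Ccl5 and the Ccl9 start site (horizontal axes), with 1 bar per peak. A peak reaches within 2 kb of the Ccl5 start site in 2 of 22 libraries, with broad peaks farther out on both sides. HHC 3 has peaks over 4.834% of the Ccl5 locus.

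Cxcl12 (SDF-1), the ligand of Cxcr4 that holds blood-forming and immune cells in place, had a compact peak at its start site in 20 libraries and a low locus signal. It read 15.21, 15.05 and 15.33 in C and 14.17, 15.03 and 14.21 in H, all lower (-0.73 ± 0.31, limma, adjusted p = 0.146). HH spread widely, at 16.99, 15.29 and 13.61 against 14.80 and 15.23 in CC_l (0.28 ± 0.93, adjusted p = 0.927). HC read 15.57, 13.61 and 17.04 and HHC read 15.69, 15.48 and 16.48. The difference was 0.57 ± 0.82 for HC against CC_s (adjusted p = 0.795) and 0.81 ± 0.67 for HHC against CCC (adjusted p = 0.853), and -0.25 ± 0.59 without HC 3 and 0.52 ± 0.59 without HHC 3. The start-site region chr6:117164689-117170656 was higher in all 3 HHC libraries (15.64, 15.49 and 15.80) than in CCC (14.18 and 15.40), but the difference of 0.85 ± 0.54 did not pass (adjusted p = 0.805) and was 0.77 ± 0.48 without HHC 3.

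Counted over the members, at most 1 locus was called in any comparison, which is near the share of all loci called. At gene loci, with Ccl8 out of the test, 0 of 9 were called for H against C (8.71% of all loci were), 0 of 9 for HH against CC_l (2.82%) and 1 of 9, Cx3cl1, over both durations (6.37%). At an unadjusted p under 0.05 there were 3 of 9 for H against C, where 33.7% of all loci passed, and 2 of 9 for HH against CC_l, where 12.5% did. The counts are near these backgrounds. For HC against CC_s, HHC against CCC and weight loss over both durations 0 of 9 were called (limma), against 1.82%, 0.502% and 1.93% of all loci. At p under 0.05 these were 0 of 9 each, against 10.3%, 3.98% and 13.6%. The median difference of the members was 0.09 for H against C and 0.20 for HH against CC_l, beside -0.03 and -0.05 for all loci. It was -0.28 for HC against CC_s and -0.37 for HHC against CCC, beside -0.07 and -0.06. Without HC 3 and without HHC 3 it was -0.22 and -0.09, beside 0.02 for all loci in each.

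By region, 3 of 15 tested member regions were called for H against C, all lower, where 8.52% of all regions were called. They are the regions beyond Ccl9, Ccl5 and Ccl8 described above, of which those of Ccl9 and Ccl8 passed the filter on low values through C alone, so the count is no support for a fall. The count was 0 of 16 for HH against CC_l (2.68%) with 2 of 16 at p under 0.05 (13.7%), and 1 of 17 over both durations (4.36%). It was 0 of 15 for HC against CC_s (2.54%) with 0 at p under 0.05 (12%), 0 of 16 for HHC against CCC (0.706%) with 1 at p under 0.05 (6.14%), and 0 of 20 for weight loss over both (1.71%) with 2 at p under 0.05 (13.1%). In the finer stretches 4 of 13 were called for H against C (6.33%), 1 higher and 3 lower, the higher one being the Cxcl1 upstream stretch. All 4 passed the filter on low values through 1 group alone, H for the higher one and C for the others, so this count supports nothing either. The stretch count was 0 of 15 for HC against CC_s (2.34%), 1 of 17 for HH against CC_l (2.83%), 0 of 18 for HHC against CCC (0.817%), 2 of 18 for obesity over both durations (3.43%) and 0 of 20 for weight loss over both (1.21%).

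Beside the Cxcl1 stretch, the stretches called for H against C were chr11:83566399-83573572 beyond Ccl9 (-1.14), chr11:83504178-83511281 beyond Ccl5 (-1.25) and chr11:82068812-82074668 beyond Ccl11 (-1.13). The latter pair were each at the floor of 14.22 in 2 of 3 H libraries. The Ccl11 stretch gave 0.09 ± 0.48 for HH against CC_l, and the difference between the arms was 1.22 ± 0.52 (limma interaction term, adjusted p = 0.9). The Ccl9 stretch read 15.34, 15.41 and 15.33 in C and was at the floor of 14.22 in all 3 H libraries. Regions with a peak in every library of one group and in none of the other were 0 of 20 for H against C (5.52% of all regions), 0 of 22 for HC against CC_s (1.66%) and 0 of 23 for HHC against CCC (2.54%). The obese and weight-loss differences were also compared between the short and the long arm, and the counts at p under 0.05 before adjustment were low for members and for all features alike (limma interaction term). For obesity they were 0 of 9 loci (5.28% of all loci), 0 of 17 regions (5.4% of all regions) and 1 of 18 stretches (5.34% of all stretches), the one beyond Ccl11. For weight loss they were 0 of 9 loci (1.24%), 0 of 20 regions (2.06%) and 0 of 20 stretches (2.3%).

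**Figure D5:**
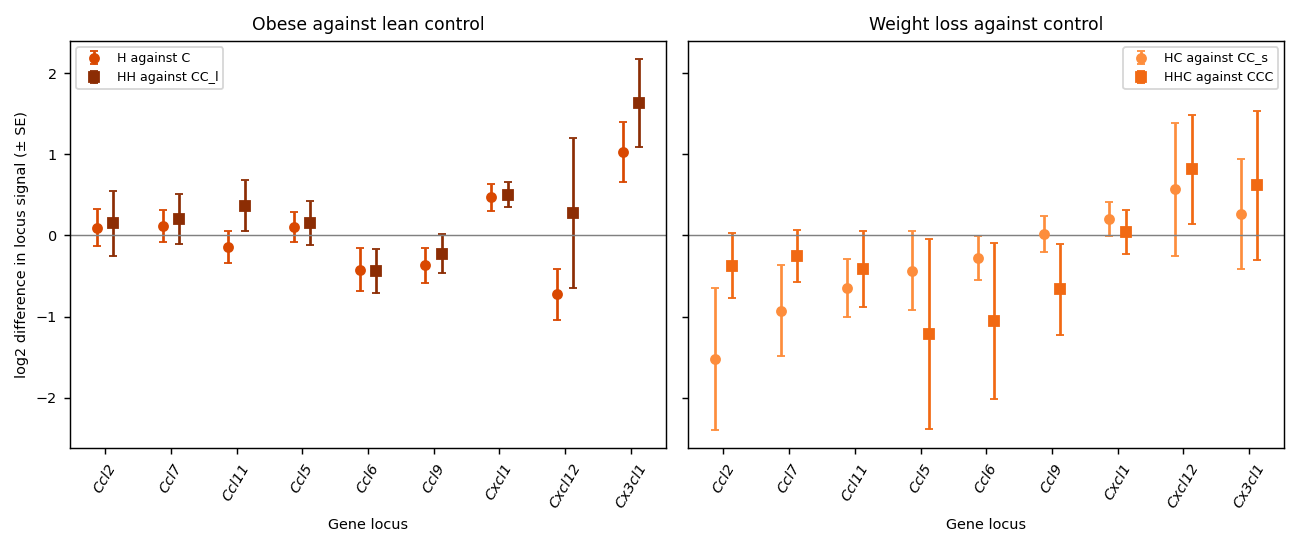
Differences in log2 locus signal (vertical axes, points with SE bars) of each chemokine locus that was tested (horizontal axes), for the obese groups and for the weight-loss groups against controls of the same age. Cxcl1 and Cx3cl1 lie above 0 in both obese groups, and Ccl2 (-1.52) and Ccl5 (-1.22) have the widest error of their comparison, HC against CC_s and HHC against CCC respectively.

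Other chemokine and receptor genes were counted by list. Of 22 other chemokine loci tested over both durations of obesity, 0 were called higher and 4 lower (6.37% of all loci were called), among them Cxcl3, Ccl17 and Cxcl15 at -1.24, -1.10 and -1.34. For H against C, where 8.71% of all loci were called, 1 of 20 was higher (Ccl19, 1.02) and 2 were lower, Cxcl15 at -1.19 and Cxcl3 at -1.39. For HH against CC_l (2.82% of all loci) 2 of 21 were lower, Ccl17 at -2.09 and Ccl19 at -1.74, so Ccl19 was called in opposite directions in the 2 arms. For HC against CC_s (1.82% of all loci) 1 of 19, Ccl28, was higher (2.21, limma, adjusted p = 0.307, and 1.53 without HC 3). For HHC against CCC (0.502%) 0 of 22 were called. Over both durations of weight loss (1.93%) 0 of 22 were called, with Ccl28 at 1.61 (adjusted p = 0.295). Among receptor genes 1 of 15 was called for H against C (8.71% of all loci), Ccr7, which guides dendritic and T cells to lymph nodes (1.44 ± 0.25, limma, adjusted p = 0.013). In the other comparisons 0 receptor genes were called, of 15 for HH against CC_l (2.82% of all loci), 16 for obesity over both durations (6.37%), 16 for HC against CC_s (1.82%), 18 for HHC against CCC (0.502%) and 21 for weight loss over both (1.93%).

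Across all 22 libraries the genes whose locus signal followed a member most closely were found by Pearson's r, as a description only, since all libraries share the same scaling. Cxcl1 was followed by Ercc1 (0.87), Hist1h2br (0.86) and Cd3eap (0.86), and Cx3cl1 by Traf5 (0.81), Irf8 (0.79) and Gal3st2c (0.78). Ccl2 was followed by Bcl9 (0.92), Hip1r (0.92) and Rhobtb2 (0.90). Ccl5 gave 0.96 with each of Pik3ap1, Nkain1 and Sall4, and Cxcl12 reached 0.87 with Rassf4 and 0.86 with Spata13 and Cdkn1b. The values of Ccl2 and Ccl5 rest in part on HC 3 and HHC 3, since without both they were 0.49 to 0.80 for the genes named beside Ccl2 and 0.54 to 0.72 for those beside Ccl5. Those of Cxcl1 were 0.87 to 0.90, of Cxcl12 0.80 to 0.81 and of Cx3cl1 0.68 to 0.75.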

How the data were processed

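ATAC-seq of biotin-tagged adipocyte nuclei from 22 animals in 8 groups was analysed from 1 peak list per library. Per the submitters' processing notes, the authors used Trim Galore 0.6.6, Bowtie2 2.4.4, SAMtools 1.13, bedtools 2.30 and SEACR 1.3 (stringent, 0.01) with mm10. Each deposited peak carries its total signal (summed coverage) and its maximum signal (highest coverage). No normalization is stated, so depth is unknown, scales differ, and a peak missing from a list may lie under that library's threshold.

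Peaks overlapping by 1 bp were merged, total signal was summed per region or clipped to each locus, and each library was rank-mapped to the mean of the 22 sorted log2 profiles, with lower values at a floor. R 4.3.3 with limma 3.58.1 (lmFit, eBayes with a trend) was fitted over all regions or loci, on the groups compared. Adjusted p-values are Benjamini-Hochberg over the whole table. A call needed an unadjusted p under 0.01 and a log2 difference above 1 in size. The count test of the study could not be run on peak lists. Python 3.11.15, numpy 2.4.6 and pandas 2.3.3 did the rest. The code was tested on simulated data.

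Members, lists and tests were chosen with earlier results of these data known. All 10 members are named, with the regions over their start sites and the 3 regions of smallest p per comparison. At most 3 genes of smallest p are named per list, and for Ccl2, Ccl5, Cxcl1, Cxcl12 and Cx3cl1 the 3 coding genes of most like pattern. Replicate numbers were not treated as pairs, since the labels state no pairing. Correlations of same-numbered deviations ran from -0.13 to 0.18, which cannot decide it with so few libraries. The short and the long arm are separate series of libraries.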

Additional observations from a re-analysis of the deposited data

How the results depend on the processing

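Counts of member calls moved with several choices. For regions in H against C (3 called), the maximum signal, the 5 kb flank and the gene span alone gave 1 each and the 20000 strongest peaks gave 0, while leaving out 1 library gave 2 to 3. For regions in HH against CC_l (0), the 20000 strongest peaks and the stretches, which were added after seeing the data, gave 1 each. For regions in HHC against CCC (0), all libraries of the duration in 1 fit gave 1. Regions over both durations of obesity (1) gave 2 as stretches and 1 to 2 with a library left out (2 without HH 2), and regions after weight loss (0) gave 0 to 1 (1 without CC_s 1, HC 1 or HHC 1). For loci in H against C (0), leaving out a library gave 0 to 1: without H 2, Cxcl12 was called. For loci in HH against CC_l (0), the 20000 strongest peaks (Cxcl1) and the replicate block (Cx3cl1) gave 1 each, and for HHC against CCC (0) the maximum signal gave 1. For loci over both durations of obesity (1, Cx3cl1), the maximum signal (0.77), all 22 libraries in 1 fit (1.33 ± 0.51), the 5 kb flank and the gene span alone gave 0, and leaving out a library gave 0 to 1 (0 without CC_l 2). Regions present in 1 group alone, with a library left out, were 0 to 2 for H against C (2 without C 1 or C 2) and for HC against CC_s (2 without HC 2), and 1 to 2 for HHC against CCC (main counts 0). The 20000 strongest peaks gave 1 for H against C, and for HH against CC_l (1) they and a cover of 50% gave 0. The region upstream of Ccl5 in HH against CC_l reversed by maximum signal, from 0.47 to -0.11. The cause of these changes was not tested.

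In all, 193 of the alternative counts stayed within 1.5 times the main count and 33 moved. Where an arm of 2 lost a library, the lone library was assumed to vary like the other group. The replicate block, between numbers with no stated pairing, raised Cx3cl1 in HH against CC_l to 1.89 ± 0.50, past the threshold. With the 20000 strongest peaks, Cxcl1 rose by 1.24 over both durations of obesity, past the threshold. Unknown depth and the floor limit what low loci such as Ccl8 can show.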
